A study of Mus musculus with 574 samples.

Results

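The cells described here are Nes-positive, Stmn2-low cells of the developing mouse ventral midbrain, compared between late stages (E12.5 and E13.5) and an early stage (E10.5). Nes encodes nestin, an intermediate filament of neural progenitors, and Stmn2 encodes a microtubule regulator of young neurons. The cells were chosen by these measured values: a cell was kept when its level of Nes was at least 10 RPKM (reads per kilobase of transcript, scaled to library depth) and its level of Stmn2 was under 10 RPKM. Of the 550 single cells of the series the gate kept 44 late cells, 25 at E12.5 (14% of that stage) and 19 at E13.5 (13.1%), against 78.1% of the cells at E10.5. At E11.5, 30 of 90 cells passed the same gate, and they are given as a description of the stage between.

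All cells came from ventral midbrain of C57BL/6 embryos heterozygous for Lmx1a-EGFP, a green fluorescent reporter of Lmx1a, which encodes a transcription factor of the midbrain floor plate. The late, E11.5 and early groups share this genotype and differ by embryonic day. Single cells were turned into full-length cDNA by Smart-seq2 and sequenced 1 library per cell. A further 24 libraries came from pools of 100 cells, 6 for each of E13.5 and E10.5 with and without GFP. The labels name no embryo or litter, so each stage of single cells is 1 sample, the spread given is over cells, and no p-value is given for cells.

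Ventricular progenitors of the embryonic neural tube first divide as neuroepithelial cells and later take on features of radial glia, with glial transcription factors such as the Nfi family and Sox9 and lipid-binding proteins such as Fabp7. Early neuroepithelium is known for RNA-binding and chromatin proteins that later decline, among them the Lin28 proteins and Hmga1. In the ventral midbrain the floor plate progenitors give rise to dopamine neurons.

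The rule used Nes and Stmn2, and their values are a description only. Nes had a median of 143.1 RPKM in the E12.5 cells kept and 127.9 RPKM in the E13.5 cells, against 112.5 RPKM in the E10.5 cells. Near the Nes threshold, 3 late cells lay between 10 and 20 RPKM, 2 of them at E12.5 and 1 at E13.5, against 5 cells at E10.5. The gate was not equally far from Stmn2 at all stages. Stmn2 was exactly 0 in 0 of 44 late cells, with values up to 7.626 RPKM at E12.5 and 9.417 RPKM at E13.5, and in 90 of the early cells. Just outside the gate, the lowest Stmn2 values were 19.42 RPKM at E12.5 and 17.61 RPKM at E13.5, against 52.17 RPKM at E10.5.

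The label of progenitors was checked on genes other than Nes. Vim, an intermediate filament gene of progenitors, was at 10 RPKM or more in all 44 late cells and in 100% of early cells. Sox9, a transcription factor of neural progenitors and glia, reached 10 RPKM in 93.2% of late cells and 66.4% of early cells. Sox2, a core progenitor factor, was found in 27.3% of late cells and 46.7% of early cells. Listed markers of red blood cells, endothelium, microglia and macrophages had a median summed level of 0 RPKM at E12.5 and E13.5, against 0 RPKM at E10.5. Of these markers 0 averaged 10 RPKM in late or early cells. The 2-fold call used below requires that level, so it could not be made for them. Single cells held more: the summed red blood cell markers ranged up to 284.2 RPKM at E12.5 and 46.54 RPKM at E13.5, against 223.1 RPKM at E10.5, those of endothelium up to 43.87 and 112.7 RPKM at E12.5 and E13.5, against 156.4 RPKM at E10.5, and those of microglia and macrophages up to 0 and 9.934 RPKM, against 3.414 RPKM. The summed markers of mesenchyme and pericytes had medians of 0.1589 RPKM at E12.5 and 0 RPKM at E13.5, against 0 RPKM at E10.5. They ranged up to 219.6 and 310 RPKM at E12.5 and E13.5, against 232.5 RPKM at E10.5. Of these 9 markers too, 0 averaged 10 RPKM in late or early cells, so the call could not be made. Lmx1a reached 10 RPKM in 22 of 44 late cells (exact 95% interval 34.6 to 65.4%) and 81 early cells (75.7%, 66.5 to 83.5%). The transcript of the reporter, listed as EGFP, did so in 65.9% of late cells and 82.2% of early cells. Late cells thus held smaller shares of cells with Lmx1a and with the reporter, and counts with Lmx1a at 10 RPKM or more required are given beside the lists they move. Intervals here cover counting over cells only, and for any share below they reach at most 15.9 percentage points from the share in late cells and 9.93 points in early cells.

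Depth, read from the steps between low values, had a median of 1.48 M reads per cell at E12.5 and 1.71 M at E13.5, against 1.3 M at E10.5. At these depths 10 RPKM of a 2 kb transcript is about 29.6 and 34.2 reads in the late cells and 26 reads in the early cells. The E11.5 cells were shallower, at a median of 0.656 M reads, where 10 RPKM of such a transcript is about 13.1 reads. Early cells showed more genes at 1 RPKM or more, with medians of 4634 at E12.5 and 4841 at E13.5 against 5860 at E10.5. This difference moves with every gene given below as lower in late cells. In cells with 4000 to 6000 such genes, 17 at E12.5 and 12 at E13.5 against 42 at E10.5, a comparison added after seeing the data, 6 of 18 S phase genes were past 2-fold lower (13 as reported below), 5 of 19 early heterochronic genes (10 as reported), 4 of 18 G2/M genes (4 as reported) and 7 of 18 glycolysis genes (6 as reported).

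Of 23518 genes on the autosomes and mitochondrial genome, 458 were past 2-fold higher in late cells, which is 1.95% of them, and 695 were past 2-fold lower, which is 2.96%. A gene counts as past 2-fold when its mean differed from E10.5 by at least 1 on the log2(RPKM + 1) scale at both E12.5 and E13.5 and its higher side averaged at least 10 RPKM. Among the 8775 genes with a mean of at least 10 RPKM on either side these are 5.22% and 7.92%, and the median log2 difference there was -0.08. Because the contrast defines the cells compared, these counts describe it and are not evidence for it.

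**Figure D1:**
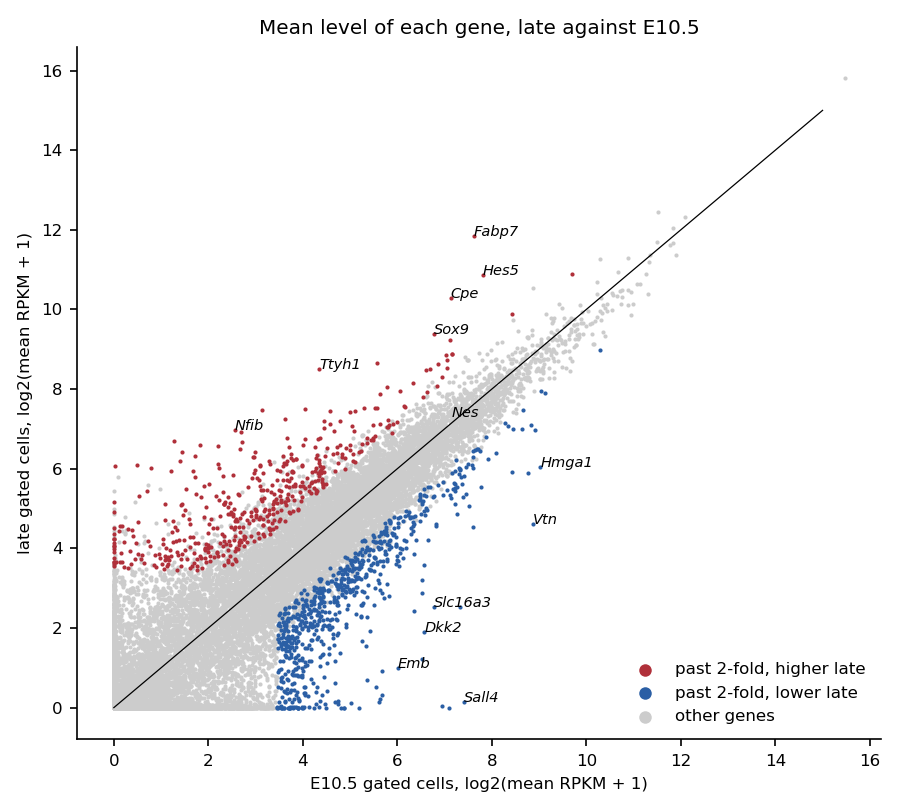
Mean level of each of 23518 genes in late cells (vertical) against E10.5 cells (horizontal), both as log2(mean RPKM + 1), with the 458 genes past 2-fold higher in red and the 695 past 2-fold lower in blue. Fabp7, Hes5 and Cpe stand above the diagonal at high levels, Sall4, Emb and Dkk2 stand far below it, and Nes lies near it.

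The genes with the largest late excess were led by glial and radial glial genes. Nfib, a transcription factor of the nuclear factor I family that acts in glial development, lies at chr4:82290173-82705750 on the minus strand of GRCm38. Its median was 79.73 RPKM at E12.5, with a highest value of 703.4, and 56.06 RPKM at E13.5, with a highest value of 654.3, against a median of 0 RPKM at E10.5, where the highest cell had 242.5. Nfib reached 10 RPKM in 72.7% of late cells (exact 95% interval 57.2 to 85%) and in 5.61% of early cells (2.09 to 11.8%). Most late cells had the gene, as the rule for naming it required, and most early cells did not, though the ranges overlap. The log2 difference of the means was 4.40.

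Fabp7, at chr10:57784881-57788450 on the plus strand, encodes brain lipid-binding protein, a standard radial glia marker. Its mean was 3698 RPKM (SD over cells 4650) at E12.5 and 3668 RPKM (SD 4324) at E13.5, against 195.5 RPKM (SD 402.8) at E10.5, a log2 difference of 4.23. It was at 10 RPKM or more in 97.7% of late cells and 44.9% of early cells. The early cells were split by Lmx1a: 29 of 81 cells with Lmx1a at 10 RPKM or more had Fabp7, with a mean of 80.06 RPKM, against 19 of 26 cells below that, with a mean of 555 RPKM. In late cells with Lmx1a, 12 of 13 at E12.5 and 9 of 9 at E13.5 had it, with means of 1441 and 3827 RPKM. In late cells below that level of Lmx1a its means were 6144 RPKM at E12.5 and 3525 RPKM at E13.5. Fabp7 was thus higher late in both Lmx1a classes.

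Ttyh1, which encodes a membrane protein of neural progenitors and glia, had a mean of 340 RPKM at E12.5 and 388.1 RPKM at E13.5, against 19.34 RPKM at E10.5. It was found in 79.5% of late cells and 17.8% of early cells. Cpe, which encodes the prohormone-processing enzyme carboxypeptidase E, was common at both ages but 3.15 higher on the log2 scale, with medians of 858.1 RPKM at E12.5 and 890.9 RPKM at E13.5 against 88.49 RPKM at E10.5. Fgfbp3, which encodes a binding protein of fibroblast growth factors, had medians of 26.92 and 188.5 RPKM at E12.5 and E13.5 against 0 RPKM at E10.5. Sox9 had medians of 578.2 and 651.7 RPKM at E12.5 and E13.5 against 51.94 RPKM at E10.5, with a log2 difference of 2.61. These 4 genes differ in kind: Cpe and Sox9 were already present in most early cells, while Ttyh1 and Fgfbp3 were under 10 RPKM in most of them.

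The remaining members of the 15 genes named as highest were Pgpep1, Gnao1, Tcf4, Schip1, Pdpn, Ddah1, Slc35f1, Hes5 and Gm20421, with log2 differences between 2.39 and 3.62. Tcf4, a basic helix-loop-helix factor that pairs with proneural proteins, averaged 160.2 RPKM at E12.5 and 96.12 RPKM at E13.5, against 20.69 RPKM at E10.5. Pdpn, which encodes the membrane glycoprotein podoplanin, averaged 107.5 and 232.3 RPKM at E12.5 and E13.5 against 31.11 RPKM at E10.5. Pgpep1, a peptidase gene, had medians of 80.99 and 106.1 RPKM at E12.5 and E13.5 against 0 RPKM at E10.5, and a share of 79.5% of late cells against 23.4% of early cells. In all 3 genes the highest early cell lay above the median of late cells, so the ages overlap.

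E11.5 cells, at their lower depth, lay between the ages for several of these genes. Nfib reached 10 RPKM in 9 of 30 cells, Ttyh1 in 12 of 30 and Fabp7 in 24 of 30. Slc35f1, at 19.29 RPKM on average, had at E11.5 a level like the 19.71 RPKM of E10.5.

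**Figure D2:**
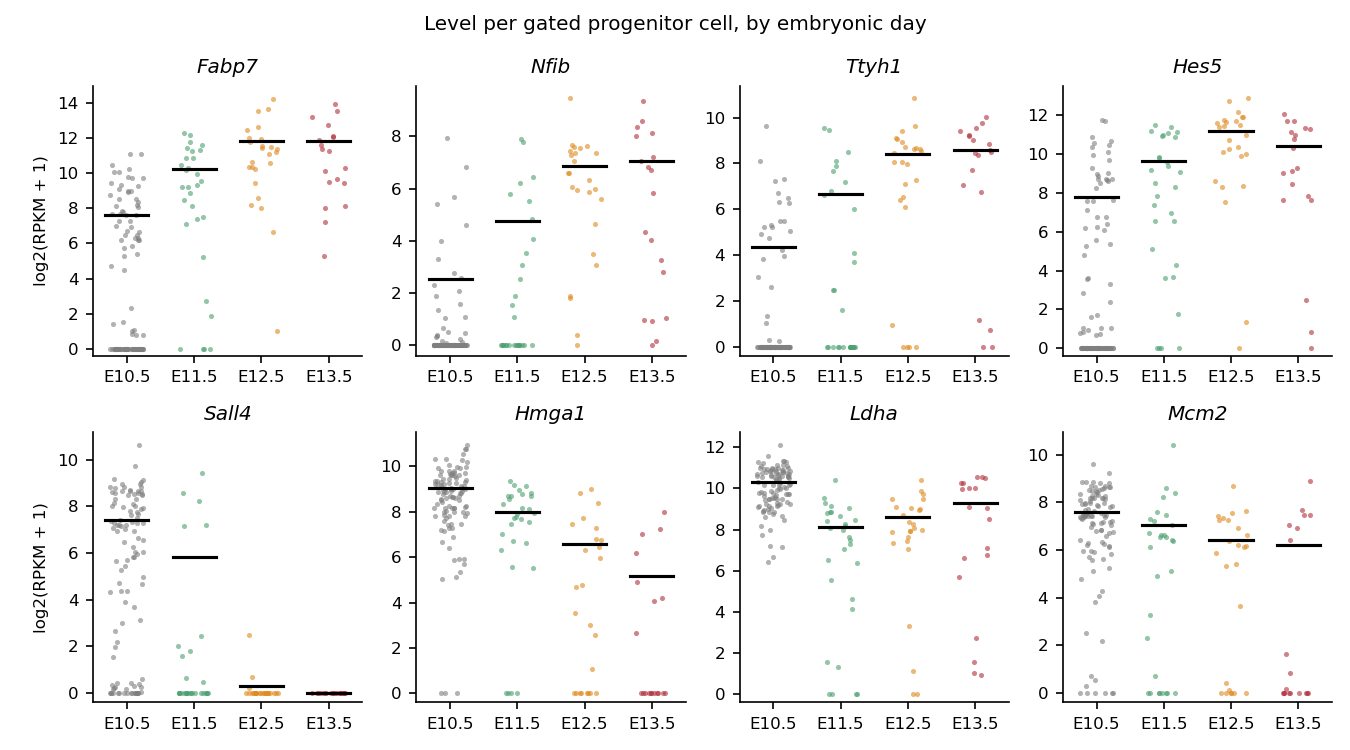
Level of 8 genes in each gated cell at E10.5, E11.5, E12.5 and E13.5, as log2(RPKM + 1); points are cells and the black line is the log2 of the mean RPKM plus 1. Nfib is at 10 RPKM or more in 9 of 30 cells at E11.5 and 32 of 44 late cells, Sall4 is under 10 RPKM in every late cell, and Hmga1, Ldha and Mcm2 have lower late means with many late cells at 10 RPKM or more.

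Over the list of radial glia and gliogenic genes, 16 of 27 measured members were past 2-fold higher and 0 lower, with a median log2 difference of 2.29 against 0 over all genes. Besides Nfib, Fabp7, Ttyh1, Sox9 and Fgfbp3 they were Slc1a3, Nfia, Nfix, Ptprz1, Ednrb, Zbtb20, Clu, Mt3, Cspg5, Sparcl1 and Fgfr3. For this list and those below, 1.95% of all genes were higher and 2.96% lower. Among genes averaging at least 10 RPKM late or early the shares were 5.22% and 7.92%. Slc1a3, the glial glutamate transporter, reached 10 RPKM in 12 of 25 cells at E12.5 and 17 of 19 at E13.5, against 37.4% at E10.5. Nfia, the paralog of Nfib, was found in 47.7% of late cells and 2.8% of early cells, with means of 15.71 RPKM at E12.5 and 56.3 RPKM at E13.5 against 3.685 RPKM at E10.5. The early mean of Nfia rests largely on 1 cell at 335.2 RPKM. Ptprz1, a receptor phosphatase of radial glia, was found in 59.1% of late and 22.4% of early cells, and Zbtb20, a zinc-finger repressor, in 52.3% and 21.5%. Cspg5, a chondroitin sulfate proteoglycan gene, averaged 3.353 RPKM at E12.5 and 44.98 RPKM at E13.5, against 0.429 RPKM at E10.5. Nfix was listed at 0 in every early cell and reached 10 RPKM in 6 of 44 late cells. Of 9 measured astrocyte and ependymal markers Aqp4 and Aldh1l1 were past 2-fold higher and 0 lower, and of 7 oligodendrocyte precursor markers Olig2 and Nkx2-2 were higher and 0 lower. The summed astrocyte and ependymal list had a median of 149.4 RPKM at E12.5 and 388.2 RPKM at E13.5, against 92.64 RPKM at E10.5, and the oligodendrocyte precursor list 0 and 0.1746 RPKM, against 0 RPKM. Aldh1l1, a folate enzyme of astrocytes, was in 31.8% of late cells, with means of 50.09 RPKM at E12.5 and 58.9 RPKM at E13.5 against 2.282 RPKM at E10.5, and turned lower with Stmn2 under 1 RPKM. Olig2 reached 10 RPKM in 6 of 44 late cells and Aqp4, the water channel of astrocytes and ependyma, in 3 of 44, and both were listed at 0 in every early cell. Clu and Mt3 rested on few cells, 5 and 12 of 44 late cells. The list thus holds genes found in most late cells and genes found in a few.

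Neuronal RNA moved with these genes, in that its summed median was higher at both late stages. Of 14 pan-neuronal genes, Elavl4, Gap43 and Rbfox3 were past 2-fold higher and 0 lower. The shares of all genes were 1.95% and 2.96%, or 5.22% and 7.92% of those averaging at least 10 RPKM late or early. The summed level of the list had a median of 755.6 RPKM at E12.5, in a range of 219.4 to 3317, and 457.2 RPKM at E13.5, in a range of 45.32 to 1569, against 291.2 RPKM at E10.5, in a range of 0 to 3306. Tubb3, a neuronal tubulin, averaged 389.1 RPKM at E12.5 and 56.08 RPKM at E13.5, against 96.66 RPKM at E10.5. Gnao1, a G protein subunit abundant in neurons, averaged 198.5 and 245.1 RPKM in E12.5 and E13.5 cells outside the gate, which is at or above its 150.8 and 209.4 RPKM inside it. Fabp7 showed the opposite, with 182.7 and 37.03 RPKM outside the gate at E12.5 and E13.5. The part of neuronal RNA in the late excess was not tested. In cells that also had Tubb3 under 100 RPKM, 11 at E12.5 and 15 at E13.5 against 77 at E10.5, 13 of the 27 radial glia and gliogenic genes were past 2-fold higher. The count was smaller in other subsets: 8 higher with Lmx1a at 10 RPKM or more, which left 13 and 9 cells at E12.5 and E13.5 against 81 at E10.5, and 6 higher and 3 lower with Mki67 at 10 RPKM or more, which left 8 and 4 against 61. It was 7 with means of log2 values over cells, and 2 higher and 2 lower with Stmn2 under 1 RPKM, which left 4 late cells at E12.5 and 1 at E13.5. The list's median log2 difference lay between 0.54 and 3.05 over 18 alternatives, against 2.29 as reported.

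Notch signalling holds cells in the progenitor state: the receptor Notch1 is activated by ligands such as Dll1 on neighbouring cells and turns on the repressors Hes5 and Hey1. 2 stretches of the Hes5 promoter are shown because they hold the letters GTGGGAA, known as a binding motif of the Notch partner Rbpj, on either strand (capitals; TTCCCAC is the other strand's spelling). They come from RefSeq promoters of GRCm38.p6 (250 bases before to 50 after the start) and lie at chr4:154960673-154960728 and chr4:154960815-154960871, both on the plus strand.
Hes5, distal: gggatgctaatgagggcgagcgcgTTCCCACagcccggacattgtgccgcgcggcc
Hes5, proximal: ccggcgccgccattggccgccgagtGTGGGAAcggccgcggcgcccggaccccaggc
The letters occur in 7.34% of 13092 promoters and in 3 of the 12 Notch pathway genes with a promoter in the table. A match describes the sequence and does not show binding.

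Hes5 had medians of 2019 RPKM at E12.5 and 619.7 RPKM at E13.5, against 0 RPKM at E10.5, and was found in 88.6% of late cells and 34.6% of early cells. Its log2 difference was 3.06. Gm20421, whose annotated transcript lies at chr4:154960770-154961678 on the minus strand and overlaps Hes5 on the plus strand, was higher by 2.83, and without knowledge of whether strand was used in counting the 2 genes cannot be told apart. Of 16 Notch pathway genes 6 were past 2-fold higher and 0 lower: Notch1, Hes5, Hey1, Nrarp, Dll1 and Dll3. Among all genes averaging at least 10 RPKM late or early 5.22% were higher and 7.92% lower. Notch1 had medians of 296.9 and 301.7 RPKM at E12.5 and E13.5 against 84.63 RPKM at E10.5. Hey1 reached 10 RPKM in 86.4% of late cells and 43% of early cells, and Nrarp, a feedback inhibitor of the pathway, in 52.3% and 22.4%. The ligand genes were in fewer cells, Dll1 in 36.4% of late and 16.8% of early cells and Dll3 in 34.1% and 9.35%. Notch1, Hes5 and Hey1 were thus present in most late cells, Hes5 by the rule that named it, and Dll1 and Dll3 in a minority. Hes1 was not past 2-fold, with a log2 difference of -0.48. With Tubb3 under 100 RPKM as well, 2 of the 16 genes were past 2-fold higher, and 3 with Sox2 and 1 with Stmn2 under 1 RPKM.

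The genes with the largest late deficit were led by Sall4, which encodes a zinc-finger factor of pluripotent and early embryonic cells, at chr2:168748332-168767943 on the minus strand. In late cells its highest value was 4.673 RPKM at E12.5, and all 19 cells at E13.5 were at 0. At E10.5 the median was 88.64 RPKM, the highest value 1578 RPKM, and 67.3% of cells reached 10 RPKM. A share of 0 of 44 late cells allows, by its exact interval, up to 8.04% of such cells. E11.5 cells were between, with 5 of 30 at 10 RPKM or more.

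Emb, which encodes an adhesion protein of the immunoglobulin superfamily, reached 10 RPKM in 2.27% of late cells and 50.5% of early cells. Dkk2, a secreted modulator of Wnt signalling, did so in 2.27% and 54.2%. Vtn, which encodes the matrix protein vitronectin, had a median of 0 RPKM at E12.5 and at E13.5 against 54.19 RPKM at E10.5, though single late cells held up to 385.3 RPKM. Col4a2, a chain of basement membrane collagen, was in 6.82% of late cells and 60.7% of early cells. In these genes a positive late cell was the exception. Igdcc3, an early neural adhesion protein gene, was lower but not lost, with medians of 24.87 and 47.19 RPKM at E12.5 and E13.5 against 304.1 RPKM at E10.5. Other named lower genes were Cmtm8, Slc16a3, Car14, mt-Tr, Hmga1, Apitd1, Pdlim1 and Hist1h2ak. Hist1h2ak belongs to a multigene histone family, so reads can be split between copies.

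The list of early heterochronic genes, which are known to be high in early embryonic progenitors, had 10 of 19 measured members past 2-fold lower and 0 higher, with a median log2 difference of -2.03. Among all genes averaging at least 10 RPKM late or early 7.92% were lower and 5.22% higher. The list's count of lower genes was 5 in cells with 4000 to 6000 genes at 1 RPKM, where the median was -1.53, and 6 with means of log2 values over cells. Hmga1, a chromatin architectural protein, had medians of 24.57 RPKM at E12.5 and 0 RPKM at E13.5 against 462.1 RPKM at E10.5, and was at 10 RPKM or more in 47.7% of late cells and 97.2% of early cells. At E11.5 its median was 229.5 RPKM. Lin28a, an RNA-binding protein that blocks let-7 microRNA maturation, was listed at 0 in all 44 late cells and reached 10 RPKM in 18.7% of early cells. Its paralog Lin28b was found in 2.27% of late cells and 24.3% of early cells. Igf2bp1, which encodes an mRNA-binding protein and is a let-7 target, had means of 64.77 RPKM at E12.5 and 20.62 RPKM at E13.5 against 147.3 RPKM at E10.5. Its share of cells was 43.2% late and 82.2% early, so that Igf2bp1, like Hmga1, was lower but present in many late cells, unlike the Lin28 genes. Igf2bp2 was found in 13.6% of late cells and 58.9% of early cells, and Prtg, an immunoglobulin superfamily receptor gene of early neural tissue, in 6.82% and 42.1%. Crabp1 and Crabp2 bind retinoic acid inside cells. Crabp2 was in 22.7% of late cells and 66.4% of early cells, and Crabp1 in 0 late cells and 10.3% of early cells. Hmga2, the close relative of Hmga1, was low in cells of both ages, with medians of 0 RPKM at each late stage and at E10.5, and reached 10 RPKM in 9.09% of late cells and 10.3% of early cells.

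Genes of DNA replication were lower as a group. Of 18 S phase genes 13 were past 2-fold lower and 0 higher, with a median log2 difference of -1.34, and 4 of 18 G2/M genes were past 2-fold lower (Top2a, Cdk1, Aurkb and Kif11). Among all genes averaging at least 10 RPKM late or early 7.92% were lower and 5.22% higher. Of the S phase genes 5 were lower with Lmx1a and 7 with Sox2 at 10 RPKM or more, and 8 without the E12.5 cells whose titles start with F. The list's median lay between -3.44 and -0.89 over 18 alternatives. The G2/M count depended on the comparison, with 15 lower for means of log2 values over cells, 14 for E13.5 alone, 11 without the E12.5 cells whose titles start with C, 1 without those starting with F and 0 with Mki67 at 10 RPKM or more. The sequences below are shown because they lie in the promoters of 2 of the lower genes and hold the letters TTTCCCGC, one of 2 forms (with TTTGGCGC) searched on both strands as the E2F motif, whose factors drive S phase genes. Both read GCGGGAAA (capitals), the other strand's spelling of these letters. They are chr5:138172016-138172073 on the minus strand for Mcm7, a subunit of the replicative helicase, and chr11:98907988-98908045 on the plus strand for Cdc6, which loads that helicase.
Mcm7: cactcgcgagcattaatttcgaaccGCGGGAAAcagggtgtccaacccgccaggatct
Cdc6: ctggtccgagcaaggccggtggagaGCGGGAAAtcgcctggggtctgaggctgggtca
Either form occurs in 2.67% of promoters and in 5 of the 15 S phase genes with a promoter. Of the 11 such genes past 2-fold, 3 hold it (Mcm3, Mcm7 and Cdc6), while Mcm5 and Mcm6 hold it and were not past 2-fold.

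Mcm2, another helicase subunit, had medians of 68.72 RPKM at E12.5 and 0.1262 RPKM at E13.5 against 171.5 RPKM at E10.5, with 54.5% of late and 89.7% of early cells at 10 RPKM or more. Its log2 difference of -1.3 was -0.88 with Sox2 and -0.72 with Mki67 at 10 RPKM or more required. Mcm7 had medians of 129.8 and 57.9 RPKM at E12.5 and E13.5 against 347.8 RPKM at E10.5. Cdc6 reached 10 RPKM in 2.27% of late cells and 30.8% of early cells. Rrm2, a subunit of ribonucleotide reductase, had medians of 20.74 and 0.294 RPKM at E12.5 and E13.5 against 425.8 RPKM at E10.5, and was found in 45.5% of late and 90.7% of early cells. About as many late cells had these genes as lacked them for Mcm2 and Rrm2, and nearly all lacked Cdc6. Mki67, a marker of cycling cells, was in 27.3% of late cells (exact 95% interval 15 to 42.8%) and 57% of early cells (47.1 to 66.5%), with a log2 difference of -0.71 that was not past 2-fold. With Mki67 at 10 RPKM or more required, which left 8 cells at E12.5 and 4 at E13.5 against 61 at E10.5, 6 of 18 S phase genes were past 2-fold lower. In cells with Tubb3 under 100 RPKM 4 of 18 S phase genes were past 2-fold lower.

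Glycolysis turns glucose into pyruvate and lactate. Of 18 genes 6 were past 2-fold lower (Hk2, Ldha, Slc2a1, Slc2a3, Slc16a1 and Slc16a3) and 1 higher (Ldhb), with a median log2 difference of -1.03. Among all genes averaging at least 10 RPKM late or early, 5.22% were higher and 7.92% lower. Of 17 respiratory chain genes 0 were past 2-fold in either direction, a count too close to these shares to be read as a result. The windows below are given because they hold ACGTG, the core of the hypoxia response element, in promoters of the glucose transporter Slc2a1 and the lactate transporter Slc16a3, at chr4:119108684-119108738 and chr11:120949015-120949069 on the plus strand.
Slc2a1: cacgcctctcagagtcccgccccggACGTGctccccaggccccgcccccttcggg
Slc16a3: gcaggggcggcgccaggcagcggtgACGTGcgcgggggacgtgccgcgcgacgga
Capitals mark the match nearest to the window's middle, and the Slc16a3 window holds the letters once more in lower case. The core is short and occurs in 26.1% of promoters and in 11 of the 17 glycolysis genes with a promoter. Of the 6 such genes past 2-fold in either direction, 5 hold it, Hk2, Ldha, Slc2a1, Slc16a1 and Slc16a3.

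Ldha, the lactate dehydrogenase subunit that favours lactate, had medians of 268.7 RPKM at E12.5 and 533.3 RPKM at E13.5 against 1147 RPKM at E10.5. It was at 10 RPKM or more in 81.8% of late cells and in every early cell. Ldhb, the other subunit, went the other way, with means of 229.7 and 254.3 RPKM at E12.5 and E13.5 against 97.92 RPKM at E10.5. Slc16a3 reached 10 RPKM in 4.55% of late cells and 65.4% of early cells, and Slc2a1 in 29.5% and 68.2%. Slc16a1, another lactate transporter, was in 2.27% of late cells and 36.4% of early cells, and Slc2a3, another glucose transporter, in 2.27% and 17.8%. Hk2, a hexokinase, was in 0 of 44 late cells at 10 RPKM and in 22.4% of early cells. Genes of glucose and lactate transport were thus in under 5% (Slc16a3, Slc16a1, Slc2a3) or in a minority (Slc2a1) of late cells.

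**Figure D3:**
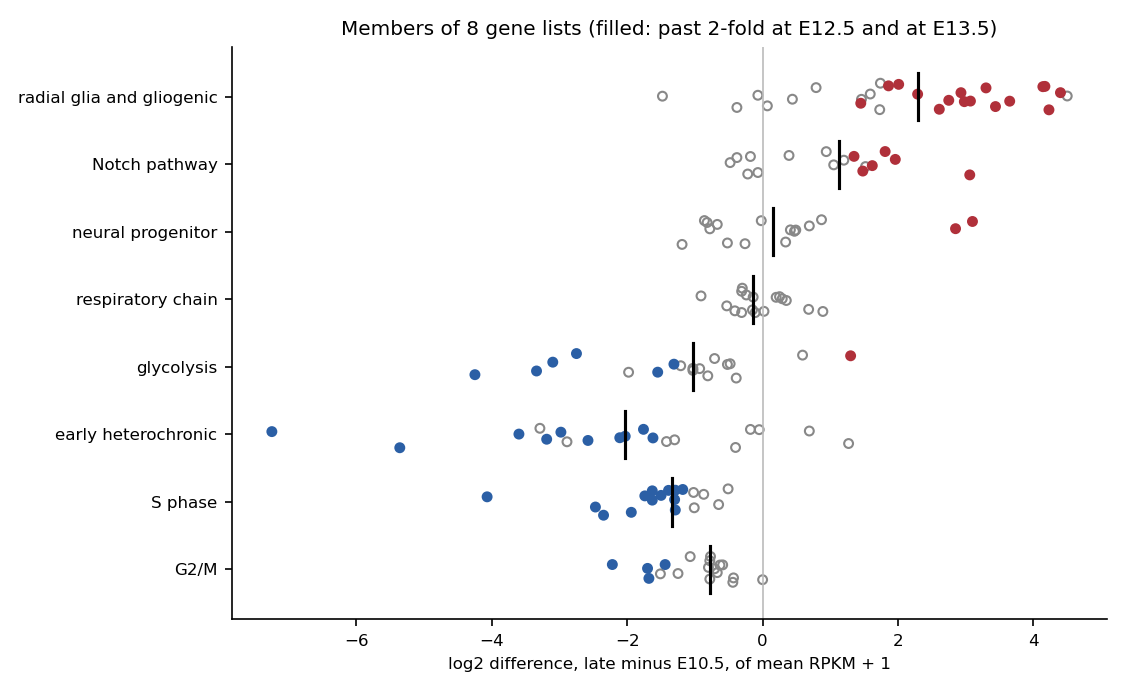
Log2 difference, late minus E10.5, of each measured member of 8 gene lists; filled points are past 2-fold at both late stages and the bar is the list's median. Radial glia and gliogenic genes lie mostly to the right, with 16 of 27 filled, early heterochronic, S phase and glycolysis genes mostly to the left, and respiratory chain genes around 0 with 0 of 17 filled. Among all genes averaging at least 10 RPKM late or early, 5.22% were past 2-fold higher and 7.92% lower.

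Among genes of dorsoventral and regional identity, a few were past 2-fold in each direction. The shares over all genes were 1.95% higher and 2.96% lower, or 5.22% and 7.92% among genes averaging at least 10 RPKM late or early. Median log2 differences were -0.51 for floor plate genes, 0.08 for the basal plate and neighbouring domains and -0.14 for diencephalic genes. Of 16 floor plate genes Msx1 was past 2-fold higher and Ferd3l, Wnt1 and Aldh1a1 lower. Of 12 markers of the basal plate and neighbouring domains Nkx2-2 was higher and Nkx6-1, Nkx6-2 and Nkx2-9 lower, and of 12 diencephalic genes Dbx1 was higher and Irx3 lower. Nkx2-2 turned lower with Stmn2 under 1 RPKM and with Sox2, Lmx1a or Mki67 at 10 RPKM or more, and Nkx6-2 turned higher in cells with 4000 to 6000 genes at 1 RPKM. Aldh1a1, a retinoic acid synthesising enzyme, was listed at 0 in all late cells and reached 10 RPKM in 8.41% of early cells. Msx1, a homeobox factor of the ventral midbrain, was found in 45.5% of late cells and 15% of early cells, and Wnt1, a ligand of midbrain development, in 9.09% and 24.3%. Lmx1a averaged 42.38 and 71.89 RPKM at E12.5 and E13.5 against 81.51 RPKM at E10.5, and Foxa2 45.64 and 67.55 against 107.5 RPKM, and neither was past 2-fold. Of 11 hedgehog genes 0 were past 2-fold. The summed markers of the basal plate and neighbouring domains had a median of 0.1786 RPKM at E12.5 and 0.12 RPKM at E13.5, against 8.064 RPKM at E10.5. Nkx6-1, a basal plate factor, was in 4.55% of late cells and 21.5% of early cells. Of 16 neural progenitor genes 2 were past 2-fold higher, Id1 and Id4, which encode inhibitors of basic helix-loop-helix factors. Id4 was found in 40.9% of late cells and 15.9% of early cells, and Id1 in 29.5% and 12.1%.

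Few genes of secreted and matrix proteins were past 2-fold, in either direction. Over all genes 1.95% were higher and 2.96% lower, and 5.22% and 7.92% of those averaging at least 10 RPKM late or early. The counts below describe single members and are not read as a result about the lists. Of 18 extracellular matrix and adhesion genes Ncan and Sparc were past 2-fold higher and Col4a1 and Col4a2 lower. Sparc, a collagen-binding matrix protein gene, had medians of 374.7 and 421.5 RPKM at E12.5 and E13.5 against 60.07 RPKM at E10.5. Ncan, a proteoglycan gene of brain matrix, was found in 31.8% of late cells and 13.1% of early cells, and in 22 of 30 cells at E11.5. Col4a1, the partner chain of Col4a2, was found in 20.5% of late cells and 47.7% of early cells. Of 12 insulin-like growth factor genes 2 were lower, Igf2 and the binding protein gene Igfbp5, and Igfbp5 had medians of 1.264 and 20.71 RPKM at E12.5 and E13.5 against 102.1 RPKM at E10.5. Of 20 Wnt genes Nkd1, an inhibitor of the pathway, was higher and Dkk1, a secreted antagonist, was lower. Dkk1 was listed at 0 in every late cell and reached 10 RPKM in 9.35% of early cells. Of 12 early response and heat shock genes 3 were lower (Jun, Dusp1 and Atf3) and 0 higher.

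The GFP+ pools, whose libraries the cell rule did not use, allowed a test between 6 pools of each embryonic day. The labels name no embryo for the pools either. The p-values therefore measure the difference against the spread between pools, which may be technical and need not hold the spread between embryos. Pools were not gated and hold neurons: Stmn2 averaged 919.2 ± 59.37 RPKM in E13.5 pools and 53.51 ± 29.64 RPKM in E10.5 pools (SD, n = 6 each), and Nes 19.78 ± 5.503 and 74.2 ± 8.427 RPKM. Fewer progenitors and less RNA per progenitor cannot be told apart in pools. By limma, with p-values adjusted over 15871 genes, 3506 genes were higher in E13.5 pools (22.1%) and 4697 lower (29.6%). Of the genes past 2-fold higher in late cells, 450 were tested, and 208 (46.2%) were higher and 50 lower in pools. Of those lower in late cells, 691 were tested, and 391 (56.6%) were lower and 70 higher.

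Nfib had 14.67 to 32.17 RPKM, with a median of 27.9, in the 6 E13.5 pools and 2.602 to 7.375 RPKM, with a median of 4.624, in the 6 E10.5 pools, without overlap, a log2 difference of 2.18 ± 0.24 (SE, limma adjusted p = 2.25e-08). Fabp7 had 423.4 to 808.7 RPKM in E13.5 pools and 119.2 to 409.3 RPKM in E10.5 pools (log2 1.52 ± 0.38, limma adjusted p = 0.00143). Ttyh1 rose as well (log2 1.71, limma adjusted p = 0.00019). Sall4 fell by 3.73 on the log2 scale (limma adjusted p = 4.94e-08), with 1.453 to 14.62 RPKM in E13.5 pools and 49.69 to 122.2 RPKM in E10.5 pools. Of the lower genes named above from the largest late deficits, mt-Tr did not pass the test in pools and the others fell. All 18 S phase and all 18 G2/M genes of the lists fell, where 29.6% of all tested genes fell and 22.1% rose. Of 18 tested early heterochronic genes 15 fell and 1 rose; Lin28a was at 0 in all 6 E13.5 pools and at 8.384 to 15.81 RPKM in E10.5 pools, and Hmga2, low in cells of both ages, had 0.1025 to 1.699 RPKM in E13.5 pools and 19.32 to 24 RPKM in E10.5 pools. Of 18 glycolysis genes 13 fell and 4 rose. Ldha fell, at 104.4 to 179.7 RPKM in E13.5 pools and 1060 to 1231 RPKM in E10.5 pools.

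Of 27 radial glia and gliogenic genes 14 rose in pools, 4 fell and 9 did not pass the test, where 22.1% of all tested genes rose and 29.6% fell. Nfia rose, with 5.291 to 37.21 RPKM in E13.5 pools and 1.185 to 3.653 RPKM in E10.5 pools (log2 1.96, limma adjusted p = 0.000233). Ptprz1 and Zbtb20 rose without overlap between the ages (log2 2.23 and 2.44, limma adjusted p = 5.26e-10 and 2.72e-08).

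Among the 15 named higher genes 10 rose in pools, 2 fell (Hes5 and Gm20421) and 3 did not pass the test. Hes5 had 338.2 to 612.6 RPKM in E13.5 pools and 756.9 to 992.8 RPKM in E10.5 pools (log2 -0.91, limma adjusted p = 5.38e-06), the opposite direction to gated cells. Hey1 and Notch1 fell in pools too, at 41.74 ± 7.027 against 105.3 ± 13.42 RPKM and 72.16 ± 12.58 against 113.8 ± 19.86 RPKM in E13.5 and E10.5 pools (SD, n = 6 each). Of 16 Notch pathway genes 11 fell and 1 rose, where 29.6% of all tested genes fell and 22.1% rose. Sox9 and Slc1a3 did not pass the test, at 181.6 ± 27.37 against 158.6 ± 14.31 RPKM and 52.2 ± 22.6 against 42.82 ± 6.164 RPKM in E13.5 and E10.5 pools (SD, n = 6 each; limma adjusted p = 0.203 and 0.831). All 14 pan-neuronal genes rose in pools and 8 of 15 tested neural progenitor genes fell. The neuron content of the pools moves with these results and its part was not tested.

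**Figure D4:**
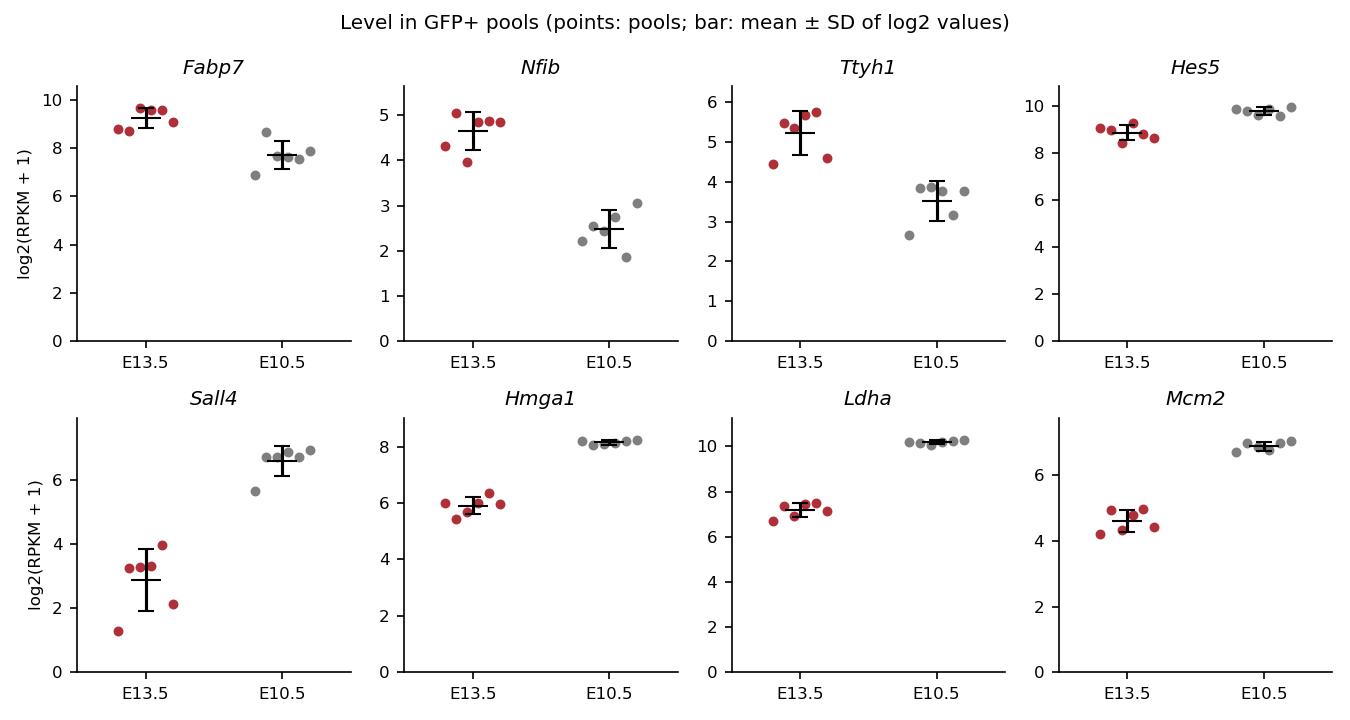
Levels of the same 8 genes in the 6 GFP+ pools of E13.5 (left) and E10.5 (right), as log2(RPKM + 1), with points for pools and bars for mean ± SD. Fabp7, Nfib and Ttyh1 are higher at E13.5 and Sall4, Hmga1, Ldha, Mcm2 and Hes5 lower, each without overlap.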

How the data were processed

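Single cells and pools of mouse ventral midbrain were measured by RNA-seq. Of the cells, 107 of 137 at E10.5, 30 of 90 at E11.5, 25 of 178 at E12.5 and 19 of 145 at E13.5 passed the gate. STAR 2.3.0 and the build mm10 stand in the submitters' processing notes; the sources used here state neither the counter, its use of strand nor the annotation. The authors deposited RPKM for the pools. For the cells they deposited log2(RPKM + 0.001) values, as the floor of the file shows; these were converted to RPKM. Genes on X and Y (1441) and 530 whose names could not be placed on a chromosome were left out. Late values weight the E12.5 and E13.5 means equally. Shares have exact Clopper-Pearson 95% intervals. The pool values, as log2(RPKM + 1), went into 1 limma model (version 3.58.1, R 4.3.3) with 4 group means and a variance trend, for genes at 1 RPKM or more in at least 6 pools, with Benjamini-Hochberg adjustment and a threshold of 0.05. Nothing says that the pools came from separate embryos, so their spread may be technical.

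The named genes are the 15 largest and 15 smallest log2 differences among genes past 2-fold that reached 10 RPKM in at least 50% of the gated cells of every stage on the higher side, with the members of 27 gene lists, the progenitor markers, Lmx1a and the reporter. 1 of the named genes is not reported here. Members and lists were chosen with earlier results of these data known.

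Read counts were not used here. Depth was estimated per library from the pile of values that correspond to 1 read, with GENCODE M21 transcript lengths, and is approximate: 0.399 to 7.48 M reads per cell. In pools, values also piled up midway between whole steps, so 1.3 to 3.65 M reads is known only up to a factor of 2. The depth estimate, the 2-fold call in cells and the limma calls in pools were each run on simulated data. Libraries had no molecular identifiers, so reads do not each stand for a molecule.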

Additional observations from a re-analysis of the deposited data

Results flagged for a closer look

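Neurog2, a proneural factor, went opposite ways at the 2 late stages relative to E10.5, with log2 differences of 1.75 at E12.5 and -1.07 at E13.5, and this difference was not tested. Fosb, an early response gene, did so the other way, with -1.24 at E12.5 and 1.14 at E13.5, also untested.

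In the GFP+ pools 4 values stood apart from the other 5 pools of their group by Dixon's criterion. At most 68 groups were examined, because groups with every pool under 10 RPKM were skipped, and those skipped were not counted. Chance gives about 1 in 20 of the groups examined. The 4 values were Gnao1 at 214.9 RPKM in an E13.5 pool, Slc35f1 at 84.26 RPKM in an E13.5 pool, Vtn at 11.69 RPKM in an E13.5 pool and Sall4 at 49.69 RPKM in an E10.5 pool.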

How the results depend on the processing

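Against 458 genes past 2-fold higher and 695 lower, the counts moved by over 1.5 times under these alternatives: 77 higher with means of log2 values over cells, 213 higher and 321 lower with a pseudocount of 10, 2008 lower with no minimum level, 186 higher and 2424 lower with Stmn2 under 1 RPKM, 1283 lower with Sox2, 1043 lower with Lmx1a and 1542 lower with Mki67 at 10 RPKM or more as well, 1217 higher and 1436 lower for E12.5 alone, and 1482 higher and 1957 lower for E13.5 alone. Stmn2 under 1 RPKM left 4 late cells at E12.5 and 1 at E13.5; the cause of the other moves was not tested. The split between higher and lower genes moved with them, higher genes being 39.7% of those past 2-fold in the comparison as reported, 9.7% with log means and 7.1% with Stmn2 under 1 RPKM. Leaving out the E12.5 cells whose titles start with C or with F gave 458 and 440 higher and 944 and 743 lower.

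Single genes reversed as follows. With Stmn2 under 1 RPKM: Fgfr3 -1.73, Dll1 -1.25, Rbfox3 -2.47, Nkx2-2 -2.03, Nkd1 -2.46, Ncan -0.40, Aldh1l1 -0.89 and Col4a1 0.37. With Sox2: Dll3 -0.96 and Nkx2-2 -2.47. With Lmx1a: Clu -1.12, Mt3 -3.00 and Nkx2-2 -1.47. With Mki67: Gnao1 -0.26, Clu -0.87, Mt3 -0.64, Id1 -3.61, Nkx2-2 -1.48 and Ncan -0.86. In cells with 4000 to 6000 genes at 1 RPKM, chosen after seeing the data as was Tubb3 under 100 RPKM: Nkx6-2 2.22 and Fgf15 1.71. Over 18 alternatives Nfib lay between 3.16 and 5.03, Fabp7 between 1.84 and 6.96, Ttyh1 between 3.23 and 5.74, Hes5 between 2.62 and 6.32, Hmga1 between -5.22 and -2.32, Sall4 between -9.65 and -4.14, Slc16a3 between -6.54 and -2.62 and Mcm2 between -3.37 and -0.72. Mcm2 was less than 2-fold lower with Sox2 (-0.88) and with Mki67 (-0.72) at 10 RPKM or more. Counts of list members past 2-fold ranged over the same alternatives from 2 to 20 higher for radial glia and gliogenic genes, 1 to 7 higher for Notch, 0 to 6 higher for pan-neuronal, 5 to 13 lower for early heterochronic, 4 to 15 lower for S phase, 0 to 15 lower for G2/M, 4 to 11 lower for glycolysis and 2 to 7 lower for floor plate genes. Cells with at least the median number of genes were not compared, because 0 E13.5 cells reached it.

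Pool counts were within 1.5 times of those reported under the alternatives run. With only the 12 GFP+ pools, Pdpn (log2 -0.38, limma adjusted p = 0.0477), Ednrb (-0.89, 0.0497) and Fgfr3 (-0.56, 0.028) passed the threshold. Olig2 (log2 -1.09, limma adjusted p = 0.0527) missed it there, though it passed in the model as reported. Pdpn, Ednrb, Fgfr3 and Olig2 were thus lower in E13.5 pools, the opposite direction to gated cells. Arid3b, lower in both, missed the threshold with no filter (limma adjusted p = 0.0619) and with RPKM rescaled to the same sum (0.0608). No paired analysis was possible because the labels give the pools no replicate numbers.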
